A study of Mus musculus with 28 samples.

Results

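Mouse embryonic fibroblasts undergoing reprogramming in a medium with 3 added compounds were compared with and without UNC0638, over all genes. The comparison rests on 6 of the 28 samples of the series: 3 libraries with doxycycline and the 3 compounds (DOX 3C) and 3 libraries that had UNC0638 as well (DOX 3C UNC). They were chosen by their labels alone. A further 6 libraries of the same experiment, 3 with doxycycline alone (DOX) and 3 with doxycycline and UNC0638 (DOX UNC), gave the effect of the inhibitor without the 3 compounds. The other samples of the series were 10 profiles of H3K9me2 and 6 libraries of induced pluripotent stem cells, which were not analysed here.

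The labels give 1 description of cells and induction for all 4 groups. The fibroblasts came from embryos of embryonic day 13.5 to 15.5 and carried 1 copy each of Rosa26-rtTA, which drives the doxycycline-dependent activator, and of an Oct4-GFP reporter. They also carried an inducible cassette of reprogramming factors, either OKSM (Oct4, Klf4, Sox2 and Myc) or OKS, which lacks Myc. Which library had which cassette is not given in the labels, so it may differ between the groups compared. Cells were plated at 250 per cm2 on irradiated feeder cells with doxycycline at 1 µg/ml. The 3 compounds were CHIR99021 (3 µM), 250 nM of TGF-b RI kinase inhibitor II, and L-ascorbic acid (50 µg/ml). UNC0638 was added at 1 µM. The labels name no vehicle, and they give neither the time at which RNA was taken nor whether replicates came from separate cultures or embryos. The p-values therefore measure the spread between these libraries, which may be technical.

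UNC0638 inhibits G9a and GLP, the methyltransferases encoded by Ehmt2 and Ehmt1, which place dimethylation on lysine 9 of histone H3 (H3K9me2), a mark of silent euchromatin. During reprogramming a fibroblast has to silence its own programme of matrix, contractile and signalling genes before pluripotency genes become active. Ascorbic acid is a cofactor of dioxygenases that remove histone and DNA methylation, CHIR99021 inhibits the kinase GSK3 and so activates Wnt signalling, and the receptor kinase inhibitor blocks signalling by TGF-beta through ALK5.

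In units of 1e+06 reads in genes, the 6 libraries with 3C held 12.65 to 20.21, and 6.39 to 7.09% of reads fell in the 10 top genes of a library. Fibroblast markers were abundant in all 6 libraries. The sum of 12 fibroblast markers was 152468, 137126 and 145195 normalised counts in the DOX 3C libraries. It was 181257, 188943 and 198271 in the DOX 3C UNC libraries. Dppa5a and Utf1, genes of pluripotent cells, were listed at 0 in all 6 libraries, and Nanog, Esrrb and Zfp42 stayed below 6 normalised counts, so each of the 5 failed the filter on low values. Tfcp2l1, another gene of pluripotent cells, was at 407 to 713 normalised counts in these libraries, against 26.4 to 58.9 in the 6 libraries without 3C.

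Replicate 1 of the DOX 3C group stood apart. Its 16 erythroid markers summed to 2243 normalised counts, against 167 to 278 in the other 5 libraries with 3C, and its 21 fetal liver markers to 3737 against 196 to 445. Of these, 13 and 19 genes were highest in that library, while Hbb-bh1 and Apoc2 were at 0 in all 6. Leukocyte markers (20 genes) summed to 223, 608 and 505 in DOX 3C and to 243, 650 and 649 in DOX 3C UNC, so that replicate 1 was lowest in both groups. Endothelial markers (14 genes, Sox17 at 0) summed to 1488 to 1962, but Tek alone was at 1299 to 1817. Egfl7 was at 82.9 to 107, Flt1 at 18.6 to 48.5 and Erg at 9.32 to 13.3. Skeletal muscle markers (18 genes, with Myod1, Myf6 and Tnnc2 at 0) were at 66.4 to 72.6 without and 111 to 162 with UNC0638. Of these, Acta1 alone was at 17.8 to 30.1 without and 57.1 to 88.5 with it. Mylpf and Tnnt1, the others tested, were not called by limma (adjusted p = 0.567 and 0.707). In DOX 3C 1 alone, 14 genes lay over 2 times above every other library with 3C and reached at least 50 normalised counts. Among them were Apob, Alb, Afp, Alas2 and the adult globins. None of the 14 was called lowered by UNC0638. Their choice by 1 outlying control widens the standard error (0.69 for Hbb-bs and 0.74 for Alb) and makes a call unlikely, so this is no check. Without that library 1618 genes were called rather than 1880, and 1399 were called in both fits, all in the same direction.

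**Figure D1:**
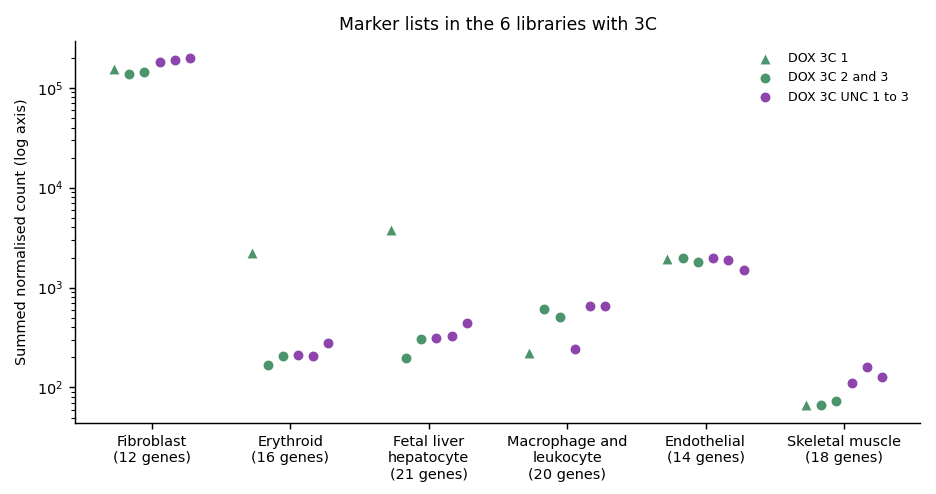
Summed normalised counts (log axis) of 6 marker lists in the 6 libraries with 3C; each point is 1 library, green without and purple with UNC0638, and the triangle is DOX 3C 1. The triangle stands above the other libraries for erythroid and fetal liver markers, and the 3 purple points stand above the 3 green points for fibroblast and skeletal muscle markers. Among the tested skeletal muscle markers Acta1 alone was raised.

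UNC0638 in the medium with 3C raised 1244 of 16138 tested genes (7.71%) and lowered 636 (3.94%), so 11.6% were called in either direction. Changes of at least 2-fold were more often increases, with 196 genes raised and 55 lowered. The values below are normalised counts of replicates 1, 2 and 3 in turn, that is reads divided by 1 factor per library; log2 fold changes, on the scale of log2(value + 1), are given ± standard error with n = 3 libraries per group. Tests are those of limma over all 12 libraries with p-values adjusted by the Benjamini-Hochberg method, and a gene is said to have risen or fallen at an adjusted p below 0.05. When DOX 3C 2 was left out, 1034 genes were called, and 1135 when DOX 3C UNC 3 was. A fit that took the replicate number as a block called 2871 genes (17.8%), among them all 1880.

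The largest increase by the naming rule was that of Prlhr, which encodes the receptor for prolactin-releasing peptide (chromosome 19, 60465641 to 60468933 on GRCm38.p6). It measured 13, 11.1 and 11.6 in the DOX 3C libraries and 69.9, 67.9 and 80.7 in the DOX 3C UNC libraries (log2 fold change 2.51 ± 0.44, adjusted p = 0.00113). Every library with UNC0638 was well above every library without it, which the rule required, and the level stayed low. The rule took only genes whose groups did not overlap and whose calls held without each of the 6 libraries. For the genes of largest change, here and below, such separation was thus fixed by the choice. The share of all tested genes whose groups did not overlap is not given here. Mylk, the myosin light chain kinase of smooth muscle, rose by 2.26 ± 0.21, and Sod3, the extracellular superoxide dismutase, by 2.24 ± 0.30. Other large increases were those of Msln (2.15 ± 0.26), the mesothelial surface protein mesothelin, and Des (2.04 ± 0.31), the intermediate filament of muscle. Ly6a, which encodes the surface antigen Sca-1, rose by 2.03 ± 0.09. Syt13, a synaptotagmin, rose by 1.88 ± 0.23 and Cck, a gut and brain peptide hormone, by 1.83 ± 0.26. Sardh, the mitochondrial sarcosine dehydrogenase, was at 90.2, 30.4 and 83.4 in the DOX 3C libraries and 228, 200 and 225 in the DOX 3C UNC libraries (log2 fold change 1.81 ± 0.28, adjusted p = 0.000353). The 3 libraries with UNC0638 lay close together here, while DOX 3C 2 was well below the other controls.

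**Figure D2:**
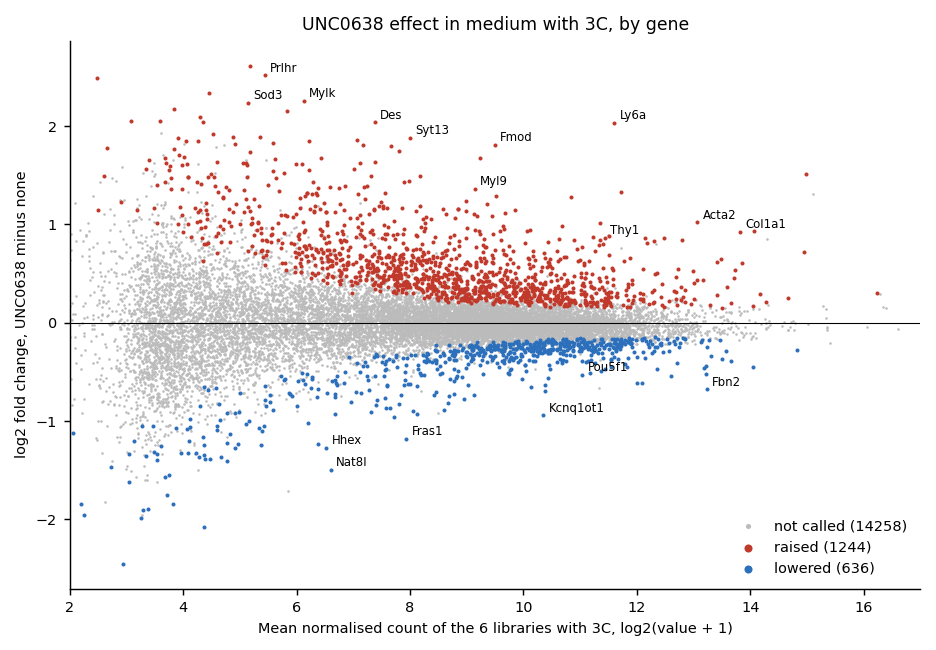
Log2 fold change of each tested gene (UNC0638 minus none, with 3C) against its mean level over the 6 libraries, as log2(value + 1); red points are the 1244 raised genes, blue points the 636 lowered genes and grey points those not called. Called genes with changes above 1 are mostly red at every level, and Ly6a, Acta2 and Col1a1 are raised among abundant genes.

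Neither gene for the inhibitor's targets was called. Ehmt1 was at 1912, 1907 and 1862 in the DOX 3C libraries and 1775, 1846 and 1647 in the DOX 3C UNC libraries (log2 fold change -0.11 ± 0.05, adjusted p = 0.189), and Ehmt2 at 4147, 4353 and 4493 in the DOX 3C libraries and 4033, 4142 and 4291 in the DOX 3C UNC libraries (log2 fold change -0.06 ± 0.05, adjusted p = 0.516). The groups did not overlap for Ehmt1 and overlapped for Ehmt2. RNA levels carry no measure of the enzymes' activity, and the H3K9me2 profiles of the series were not used here.

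Genes of the contractile apparatus were higher with UNC0638. Of 25 tested smooth muscle genes, 17 rose and the other 8 did not pass the test; their median log2 fold change was 0.61, against -0.002 over all tested genes. Acta2 (chromosome 19, 34240336 to 34255585), the smooth muscle actin, was at 5068, 6217 and 5657 in the DOX 3C libraries and 9835, 13188 and 11500 in the DOX 3C UNC libraries (log2 fold change 1.02 ± 0.10, adjusted p = 3.05e-06). The lowest library with UNC0638 was well above the highest without it. Myl9, the regulatory light chain that MYLK phosphorylates, was at 266, 354 and 327 in the DOX 3C libraries and 670, 879 and 887 in the DOX 3C UNC libraries (log2 fold change 1.36 ± 0.13, adjusted p = 2.81e-06). Actg2, the enteric smooth muscle actin, rose by 1.28 ± 0.13, and Des was at 99.7, 39.2 and 60.2 in the DOX 3C libraries and 351, 202 and 239 in the DOX 3C UNC libraries. Groups were again fully separate for both light chain and desmin, which the naming rule required of desmin. Several more members, picked after their values were seen, did likewise: Myh11, the smooth muscle myosin heavy chain, rose by 1.74 ± 0.26, Lmod1, which nucleates actin filaments, by 1.32 ± 0.15, Jph2, which couples membranes in muscle, by 1.35 ± 0.27 and Cnn1, calponin, by 1.16 ± 0.20. The more abundant actin-binding genes moved less, with Tagln at 0.67 ± 0.14, Cald1 at 0.50 ± 0.07, Tpm2 at 0.49 ± 0.07 and Tpm1 at 0.43 ± 0.07. Actin genes are near-identical in their coding parts, so the split of reads between Acta2, Actg2 and Acta1 is uncertain. Acta1, the skeletal muscle actin, also rose (log2 fold change 1.66 ± 0.21, adjusted p = 7.36e-05) and was the single tested skeletal muscle marker to do so, while Myod1 and Myf6, which specify that lineage, were at 0. In bulk RNA, fewer or more cells of a type and less or more RNA per cell cannot be told apart, here and below. The feeder cells were not separated from the reprogramming cells by any value used here.

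SRF, a factor that binds the CArG box, controls many contractile genes together with cofactors that sense free actin. Among 23 tested SRF cofactors and actin regulators 13 rose, with a median of 0.25; the count was 7 without replicate 1 of DOX 3C or replicate 3 of DOX 3C UNC. Tgfb1i1, the focal adhesion cofactor Hic-5, was at 228, 244 and 177 in the DOX 3C libraries and 375, 337 and 412 in the DOX 3C UNC libraries (log2 fold change 0.80 ± 0.12, adjusted p = 0.000226). Fhl2, a LIM cofactor, rose by 0.71 ± 0.08, Pdlim7, a LIM protein of actin filaments, by 0.56 ± 0.08 and Csrp1, a LIM protein of smooth muscle, by 0.54 ± 0.09. These 4 kept their calls in every fit without 1 of the 6 libraries.

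Promoter windows of 4 raised contractile or actin-associated genes are shown because each holds a CArG box, the motif searched on both strands in the 250 bases before a gene's start. The windows are RefSeq sequence on GRCm38.p6, 5′ to 3′ on the gene's own strand, with the motif in capitals.
Myl9 (chr2:156775278-156775337, + strand): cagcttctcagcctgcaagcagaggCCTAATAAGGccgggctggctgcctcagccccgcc
Fhl2 (chr1:43196823-43196882, - strand): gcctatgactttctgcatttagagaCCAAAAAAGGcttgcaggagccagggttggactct
Cnn2 (chr10:79988519-79988578, + strand): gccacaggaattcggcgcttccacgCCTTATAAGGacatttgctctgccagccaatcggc
Acta1 (chr8:123894814-123894873, - strand): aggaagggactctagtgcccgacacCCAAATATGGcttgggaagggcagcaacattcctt

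The first base of the motif lay 161, 96, 56 and 73 bases before the start for Myl9, Fhl2, Cnn2 and Acta1. The table lists 2 promoters for Fhl2, and its window and distance belong to 1 of these starts, which lies inside the annotated gene. A CArG box was found in 1.47% of all promoters in the reference table and in 1.22% of those of tested genes. It was found in 1.88% of promoters of raised genes and in 0.898% of those of lowered genes. Among smooth muscle genes with a promoter in the table, 3 of 20 had a match (Cnn2, Ldb3 and Myl9), and among SRF cofactors and actin regulators 6 of 19 (Actg1, Fhl1, Fhl2, Filip1l, Srf and Vcl). Counted by promoter, as for the shares above, these are 16.7% and 24.1%. Of the matched genes Ldb3, Actg1, Fhl1 and Srf were not called by limma (adjusted p = 0.393, 0.451, 0.536 and 0.522). A match describes these letters and not a bound site.

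Many genes of the extracellular matrix rose. Of 11 tested fibrillar collagen chains 7 rose, with a median of 0.72. Col1a1 (chromosome 11, 94936224 to 94953042), which encodes a chain of type I collagen, was at 11531, 8922 and 9449 in the DOX 3C libraries and 18146, 18517 and 19882 in the DOX 3C UNC libraries (log2 fold change 0.93 ± 0.08, adjusted p = 2.68e-06). DOX 3C 1 was the highest control, and each library with UNC0638 exceeded it. Col1a2 rose by 0.72 ± 0.07 and Col5a1, a chain that sets the width of collagen fibrils, by 0.83 ± 0.06. Col2a1, the collagen of cartilage, was at 581, 432 and 700 without and 561, 409 and 695 with UNC0638, with an adjusted p of 0.935. Network, beaded and fibril-associated collagens gave 10 increases among 17 tested genes and a median of 0.48, led by Col8a1 (0.93 ± 0.13) and Col15a1 (0.84 ± 0.08), with Col6a3 at 0.65 ± 0.07.

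Enzymes that process and cross-link collagen were next. Among 26 tested members 13 rose and 2 fell. Lox, lysyl oxidase, was at 416, 310 and 384 in the DOX 3C libraries and 716, 687 and 976 in the DOX 3C UNC libraries (log2 fold change 1.09 ± 0.12, adjusted p = 9.91e-06). Its relatives Loxl1 (0.77 ± 0.07), Loxl2 (0.66 ± 0.15), Loxl3 (0.51 ± 0.08) and Loxl4 (0.45 ± 0.09) rose as well. Adamts2, which removes the amino-terminal propeptide, rose by 0.97 ± 0.11, and Bmp1, which removes the carboxy-terminal one, by 0.62 ± 0.06. The members that fell were Plod2, a lysyl hydroxylase, and Colgalt2, a collagen galactosyltransferase; the number that fell was 1 with no expression filter or without replicate 2 of DOX 3C or replicate 1 or 3 of DOX 3C UNC, and Colgalt2 kept its call in each of those without 1 library. Colgalt2 was at 48.6, 62.2 and 60.2 in the DOX 3C libraries and 22.1, 21.8 and 26.5 in the DOX 3C UNC libraries (log2 fold change -1.24 ± 0.18, adjusted p = 0.000205), with no overlap of the groups. The naming rule required both this separation and the kept calls of Colgalt2.

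Elastic fibres give tissue its recoil. Of 17 tested genes of this list 10 rose, with a median of 0.56 over the list, and 1 fell. Eln, elastin itself, was low and not called by limma (adjusted p = 0.56). It was at 8.3, 4.44 and 6.18 in the DOX 3C libraries and 11.6, 7.27 and 6.63 in the DOX 3C UNC libraries. Fbln2, a fibulin, rose by 0.88 ± 0.10, Emilin1, an elastin-interface protein, by 0.81 ± 0.10, Ltbp1, which anchors latent TGF-beta in the matrix, by 0.69 ± 0.08 and Efemp1, another fibulin, by 0.60 ± 0.08. Fbn2, the fibrillin of embryonic microfibrils, was the one that fell. It was at 12626, 11587 and 11201 in the DOX 3C libraries and 6631, 8587 and 7058 in the DOX 3C UNC libraries (log2 fold change -0.68 ± 0.11, adjusted p = 0.000615), and its 3 values with UNC0638 were all below the lowest control. Its relative Fbn1 was at 14148, 10270 and 10969 in the DOX 3C libraries and 12073, 13390 and 12279 in the DOX 3C UNC libraries with an adjusted p of 0.544, and the groups overlapped.

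A list of small leucine-rich and large proteoglycans had a median of 0.73, with 8 of 13 tested genes raised. The small leucine-rich ones bind and space collagen fibrils. Members outside that family included Acan, which rose, and Vcan, Hspg2 and Spock2, which were not called (log2 fold changes -0.115, -0.170 and -0.411). Fmod, fibromodulin, was at 382, 235 and 333 in the DOX 3C libraries and 1174, 792 and 1401 in the DOX 3C UNC libraries (log2 fold change 1.81 ± 0.24, adjusted p = 8.75e-05). Values with UNC0638 were all above the controls, which the naming rule required. Prelp rose by 0.93 ± 0.14 and Bgn, biglycan, by 0.84 ± 0.10. Ogn, osteoglycin, and Aspn, asporin, which were picked after their values were seen, rose by 1.32 ± 0.28 and 1.38 ± 0.30. Both lie in 1 stretch of chromosome 13 (49544443 to 49624501), where 2 of 4 tested genes rose. Acan, the large aggregating proteoglycan of cartilage, rose by 0.64 ± 0.14.

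Matricellular genes, which modulate how cells attach to matrix, gave 11 increases among 18 tested and a median of 0.49. Tgfbi, a protein induced by TGF-beta, was at 1923, 1630 and 1667 in the DOX 3C libraries and 3721, 3397 and 3382 in the DOX 3C UNC libraries (log2 fold change 1.01 ± 0.08, adjusted p = 7.44e-07). The groups were fully separate. Spp1, osteopontin, rose by 1.29 ± 0.12, Thbs1, thrombospondin 1, by 0.94 ± 0.08 and Sparc by 0.54 ± 0.06. Ccn5 and Smoc2, picked after their values were seen, rose by 1.68 ± 0.24 and 1.13 ± 0.23. Among 19 tested metalloproteinases and inhibitors 11 rose and 1 fell. Timp3, an inhibitor bound to the matrix, rose by 0.85 ± 0.07, Timp2 by 0.73 ± 0.09, the gelatinase Mmp2 by 0.66 ± 0.09 and the membrane protease Adam12 by 0.61 ± 0.09. The one that fell was Mmp15, a membrane-bound metalloproteinase, which lost its call without replicate 2 of DOX 3C (adjusted p = 0.0717), without replicate 3 of DOX 3C (adjusted p = 0.0921) and without replicate 1 of DOX 3C UNC (adjusted p = 0.116).

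Laminin and Fraser complex genes, of the basement membrane, had a median of 0.11, and 3 of 20 rose (5 with the replicate block). Fras1 (chromosome 5, 96373777 to 96784733), which joins embryonic epithelium to its underlying matrix, was at 351, 298 and 361 in the DOX 3C libraries and 123, 145 and 179 in the DOX 3C UNC libraries (log2 fold change -1.18 ± 0.12, adjusted p = 8.95e-06). The groups did not overlap, which the naming rule required.

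**Figure D3:**
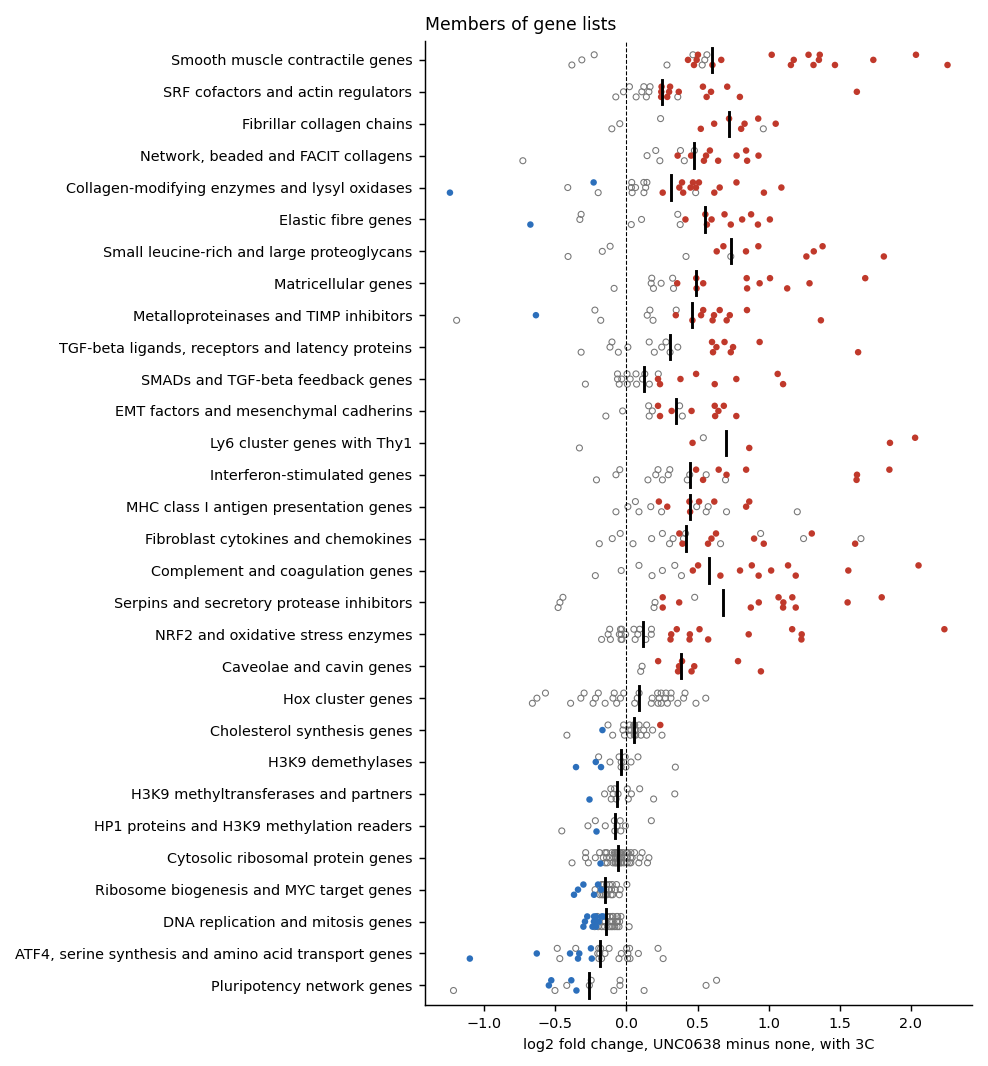
Log2 fold changes (UNC0638 minus none, with 3C) of the tested members of 30 gene lists; red points are raised and blue points lowered genes, open points were not called, the black bar is the list's median and the dashed line is 0. Smooth muscle, collagen, proteoglycan and serpin lists lie mostly to the right. The lists of replication, of ribosome biogenesis and MYC targets, and of pluripotency lie to the left by smaller amounts.

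TGF-beta acts through the receptors encoded by Tgfbr1, the kinase ALK5 that the medium's inhibitor targets, and Tgfbr2. Of 19 tested ligands, receptors and latency proteins 8 rose, with a median of 0.31. Tgfbr2 (chromosome 9, 116087695 to 116175363) was at 1736, 1506 and 1540 in the DOX 3C libraries and 2641, 2338 and 2434 in the DOX 3C UNC libraries (log2 fold change 0.63 ± 0.07, adjusted p = 6.32e-06), with no overlap. Tgfbr1 itself was at 2175, 2058 and 2081 in the DOX 3C libraries and 1797, 2133 and 1962 in the DOX 3C UNC libraries with an adjusted p of 0.309, and the groups overlapped. Among ligands, Tgfb3 rose by 0.60 ± 0.07, whereas Tgfb1 was at 52.2, 53.3 and 44.8 in the DOX 3C libraries and 57.1, 63 and 58.6 in the DOX 3C UNC libraries with an adjusted p of 0.335. Lrrc32, which presents latent TGF-beta on the cell surface, and Acvrl1, a type I receptor, were picked after their values were seen and rose by 1.63 ± 0.32 and 0.75 ± 0.13.

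Of 22 tested SMADs and feedback genes 8 rose, but 4 without replicate 2 of DOX 3C, and 5 without replicate 3 of DOX 3C UNC; their median was 0.12. Pmepa1, a feedback inhibitor of the pathway, was at 89, 65.9 and 80.3 in the DOX 3C libraries and 147, 187 and 160 in the DOX 3C UNC libraries (log2 fold change 1.06 ± 0.11, adjusted p = 6.90e-06). The groups did not overlap. Smad7, the inhibitory SMAD, did not pass the test, at 321, 325 and 279 without and 326, 379 and 377 with UNC0638 (adjusted p = 0.101). On a list of EMT factors, mesenchymal cadherins and other mesenchymal genes 9 of 16 tested rose, with a median of 0.35. Snai2 was at 128, 118 and 114 in the DOX 3C libraries and 224, 188 and 207 in the DOX 3C UNC libraries (log2 fold change 0.77 ± 0.15, adjusted p = 0.00198), in separate ranges. Twist1 rose by 0.46 ± 0.08, Prrx1 by 0.32 ± 0.05, the mesenchymal cadherin Cdh11 by 0.62 ± 0.08 and S100a4, a calcium-binding protein of fibroblasts, by 0.69 ± 0.08. S100a4, Twist1 and Prrx1 are also among the 12 fibroblast markers, of which 9 rose. Thy1, a surface marker lost early in reprogramming, was at 2067, 1673 and 2149 in the DOX 3C libraries and 3467, 3393 and 3809 in the DOX 3C UNC libraries (log2 fold change 0.86 ± 0.08, adjusted p = 3.28e-06). All 3 libraries with UNC0638 were above the controls. Vim and Fn1, 2 other fibroblast markers, had adjusted p-values of 0.14 and 0.219, with overlapping groups.

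Other growth factor systems changed in part. In the BMP and activin list 7 of 21 rose (11 with the replicate block), with a median of 0.42. Inhbb, a subunit of activins, rose by 1.15 ± 0.21 and Fst, the activin antagonist follistatin, by 0.50 ± 0.08. In the IGF list 5 of 16 rose, but 3 without replicate 3 of DOX 3C. Igfbp4 was at 563, 416 and 359 in the DOX 3C libraries and 1166, 908 and 762 in the DOX 3C UNC libraries (log2 fold change 1.09 ± 0.17, adjusted p = 0.000447), and Igfbp7 rose by 0.98 ± 0.08 and Htra1, a protease that cleaves IGF-binding proteins, by 0.82 ± 0.09. Of PDGF, FGF and EGF ligands and receptors 7 of 23 rose (4 without replicate 3 of DOX 3C or replicate 3 of DOX 3C UNC). Pdgfrb, the receptor of pericytes and fibroblasts, was at 808, 595 and 904 in the DOX 3C libraries and 1391, 1333 and 1654 in the DOX 3C UNC libraries (log2 fold change 0.94 ± 0.15, adjusted p = 0.000678). Fgf2 rose by 0.64 ± 0.10 and Kitl, the ligand of KIT, by 0.49 ± 0.09. Wnt feedback inhibitors and TCF factors had a median of 0.08 and 4 increases among 20, with Sfrp1, a secreted Wnt antagonist, at 0.84 ± 0.13, and Nkd2, an intracellular one, at 0.75 ± 0.17.

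The Ly6 family encodes small lipid-anchored surface proteins. Ly6a (chromosome 15, 74994877 to 74998031) was at 1267, 1092 and 1303 in the DOX 3C libraries and 4882, 4811 and 5246 in the DOX 3C UNC libraries (log2 fold change 2.03 ± 0.09, adjusted p = 5.75e-10). The lowest library with UNC0638 was more than 3 times the highest without it. Ly6c1 rose by 1.85 ± 0.26 and Ly6e by 0.47 ± 0.06; with Thy1, 4 of 6 tested genes on that list rose. Ly6a and Ly6c1 have close relatives on chromosome 15, so reads may have been split between copies.

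Interferon-stimulated genes and genes of antigen presentation rose in part. Of 21 tested interferon-stimulated genes 8 rose, with a median of 0.45; of 19 tested genes of MHC class I presentation 8 rose, with a median of 0.45, but 5 with no expression filter or without replicate 2 of DOX 3C UNC, and 4 without replicate 2 of DOX 3C or replicate 3 of DOX 3C UNC. Gbp7, a guanylate-binding protein that acts against intracellular pathogens, was at 38, 27.4 and 28.6 in the DOX 3C libraries and 135, 97 and 114 in the DOX 3C UNC libraries (log2 fold change 1.85 ± 0.21, adjusted p = 1.52e-05). Gbp2 was at 78.3, 57 and 67.9 in the DOX 3C libraries and 226, 195 and 207 in the DOX 3C UNC libraries (log2 fold change 1.62 ± 0.22, adjusted p = 9.65e-05). For both, all libraries with UNC0638 were above all those without, which the naming rule required of Gbp7. Xaf1, an apoptosis factor induced by interferon, rose by 1.62 ± 0.25 and Ddx58, the RNA sensor RIG-I, by 0.70 ± 0.09. Gbp3, which lies between Gbp7 and Gbp2 on chromosome 3, did not pass the test (adjusted p = 0.535). Among presentation genes, H2-T22, a non-classical class I molecule, rose by 0.86 ± 0.12, B2m, the light chain of class I, by 0.44 ± 0.05 and Tapbp, which loads peptide, by 0.45 ± 0.10. Guanylate-binding and H2 genes have near-identical copies, which makes their single values uncertain.

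Windows of 5 raised genes are shown, Lgals9 from the galectin list and the others from these groups. They were picked because each holds GAAA, any 2 bases and GAAA, a form of the interferon-stimulated element. On the other strand this reads TTTC, any 2 bases and TTTC, and both were searched within the 250 bases before the start. They are RefSeq sequence on GRCm38.p6, written 5′ to 3′ on the gene's own strand with the match in capitals.
Gbp7 (chr3:142530258-142530317, + strand): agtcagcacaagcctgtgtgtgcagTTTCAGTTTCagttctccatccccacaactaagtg
Gbp2 (chr3:142620579-142620638, + strand): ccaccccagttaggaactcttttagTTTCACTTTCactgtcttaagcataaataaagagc
B2m (chr2:122147523-122147582, + strand): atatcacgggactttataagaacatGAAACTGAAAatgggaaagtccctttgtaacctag
H2-T22 (chr17:36042899-36042958, - strand): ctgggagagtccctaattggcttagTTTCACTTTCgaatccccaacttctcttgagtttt
Lgals9 (chr11:78984945-78985004, - strand): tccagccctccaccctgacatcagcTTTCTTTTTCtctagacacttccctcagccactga

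The match began 53 bases before the start in Gbp7, 59 in Gbp2, 139 in B2m, 191 in H2-T22 and 55 in Lgals9. It was found in 2.98% of all promoters, in 2.4% of those of tested genes, in 4.01% of those of raised genes and in 1.62% of those of lowered genes. Of interferon-stimulated genes with a promoter in the table, 6 of 18 had it (Bst2, Gbp2, Gbp3, Gbp7, Irgm1 and Stat2), or 27.3% of their promoters. These matches include Gbp3, which was not called. Lgals9, a galectin that binds surface glycans of immune cells, was at 71.2, 60 and 62.5 in the DOX 3C libraries and 134, 148 and 170 in the DOX 3C UNC libraries (log2 fold change 1.21 ± 0.11, adjusted p = 2.85e-06), and Lgals3bp, which binds galectin-3, rose by 1.44 ± 0.13.

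Several secreted immune and protease genes rose. Of 23 tested cytokines and related genes 9 rose, and 15 with the replicate block. Il1rl1, the receptor of interleukin-33, rose by 1.61 ± 0.22, Cxcl5, a neutrophil chemokine, by 0.90 ± 0.09, Ccl2, a monocyte chemokine, by 0.57 ± 0.09 and Csf1, the macrophage growth factor, by 0.39 ± 0.06. The summed leukocyte markers overlapped between the groups, at 223 to 608 and 243 to 650. Complement and coagulation genes gave 11 increases among 18 with a median of 0.58, but 7 without replicate 2 of DOX 3C, and 5 without replicate 3 of DOX 3C UNC. C1ra, a protease of the first complement component, was at 359, 299 and 293 in the DOX 3C libraries and 815, 647 and 638 in the DOX 3C UNC libraries (log2 fold change 1.14 ± 0.11, adjusted p = 3.03e-06). Plat and Plau, which activate plasminogen, rose by 1.02 ± 0.14 and 0.88 ± 0.13. Fetal liver also makes complement, and its markers were high in DOX 3C 1; C1ra, Plat and Plau kept their calls without that library.

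Serpins and other protease inhibitors had a median of 0.68 and 12 increases among 18. Serpinb9, the inhibitor of granzyme B, was at 127, 107 and 120 in the DOX 3C libraries and 289, 252 and 259 in the DOX 3C UNC libraries (log2 fold change 1.17 ± 0.11, adjusted p = 3.05e-06). Slpi, a secreted inhibitor of leukocyte proteases, was at 91.3, 87.4 and 91.9 in the DOX 3C libraries and 302, 299 and 348 in the DOX 3C UNC libraries (adjusted p = 0.0014). Groups were separate for both, which the naming rule required of Slpi. Serping1, the inhibitor of complement C1, rose by 1.19 ± 0.16 and Serpinf1 by 0.88 ± 0.07. Some increases lay side by side in the genome, a pattern noticed after the values were seen and not tested. In the Serpinb cluster of chromosome 13 (32842092 to 33040588) all 4 tested genes rose, namely Serpinb1a, Serpinb6b, Serpinb9 and Serpinb9b. In the Serpina3 cluster of chromosome 12 (104236147 to 104414334) all 4 tested genes rose too, but their copies are nearly alike and may share reads.

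Several members of a list of NRF2 and oxidative stress enzymes rose. Of 30 tested members 12 rose, with a median of 0.12. Sod3 was at 9.49, 8.15 and 17 in the DOX 3C libraries and 50.1, 44.9 and 76.2 in the DOX 3C UNC libraries (log2 fold change 2.24 ± 0.30, adjusted p = 0.000107). Xdh, xanthine dehydrogenase, was at 324, 279 and 302 in the DOX 3C libraries and 813, 638 and 688 in the DOX 3C UNC libraries (log2 fold change 1.23 ± 0.14, adjusted p = 1.95e-05), and Gstm2, a glutathione transferase, rose by 1.23 ± 0.12. Groups did not overlap for either of the former, which the naming rule required of Sod3. Gpx3, the secreted glutathione peroxidase, rose by 1.17 ± 0.11 and Hmox1, haem oxygenase, by 0.58 ± 0.09. In the list of aryl hydrocarbon receptor and retinoid genes 6 of 20 rose, but 3 without replicate 3 of DOX 3C. Ahr, the receptor itself, was at 4279, 2663 and 3260 in the DOX 3C libraries and 6342, 5085 and 6231 in the DOX 3C UNC libraries (log2 fold change 0.81 ± 0.18, adjusted p = 0.00603), and Cyp1b1, its target, rose by 0.61 ± 0.12. Cyp26b1, which degrades retinoic acid, was the one that fell, at 515, 626 and 381 in the DOX 3C libraries and 263, 308 and 238 in the DOX 3C UNC libraries (log2 fold change -0.89 ± 0.15, adjusted p = 0.000901).

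Caveolae, the membrane pits of mesenchymal cells, gave 8 increases among 10 tested genes, but 4 without replicate 2 of DOX 3C or replicate 3 of DOX 3C UNC, and 5 without replicate 3 of DOX 3C. Cav1, their scaffold, was at 2244, 2235 and 2002 in the DOX 3C libraries and 2661, 3304 and 2962 in the DOX 3C UNC libraries (log2 fold change 0.46 ± 0.09, adjusted p = 0.00198), and Cavin4, the muscle member of the cavins, rose by 0.95 ± 0.21. Of 20 integrin chains 2 rose and 1 fell, near the shares over all genes. Itga3 and Itga5, the receptors of laminin and fibronectin, rose by 0.92 ± 0.19 and 0.52 ± 0.07, and Itgb4, the chain of epithelial hemidesmosomes, fell by 0.53 on the log2 scale. Of adipocyte genes 6 of 17 rose. Fabp4, the fatty acid carrier of adipocytes, was at 23.7, 8.89 and 18.5 in the DOX 3C libraries and 64.1, 46.1 and 78.5 in the DOX 3C UNC libraries (log2 fold change 1.89 ± 0.37, adjusted p = 0.00302), Zfp423, a determinant of preadipocytes, rose by 0.90 ± 0.13 and Plin2, a lipid droplet coat, by 0.79 ± 0.14. AP-1 and immediate early genes gave 10 increases and 1 decrease among 28, but 6 without replicate 2 of DOX 3C or replicate 3 of DOX 3C UNC. Fosl2 rose by 0.62 ± 0.11 and Junb by 0.31 ± 0.06. The decrease was that of Klf4, which is also in the cassette.

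All 4 reprogramming factors fell. Pou5f1 (chromosome 17, 35506032 to 35510777) was at 2384, 2539 and 2529 in the DOX 3C libraries and 1594, 1839 and 1739 in the DOX 3C UNC libraries (log2 fold change -0.53 ± 0.06, adjusted p = 7.46e-06). Sox2 was at 1922, 1945 and 1949 in the DOX 3C libraries and 1301, 1629 and 1531 in the DOX 3C UNC libraries (log2 fold change -0.39 ± 0.07, adjusted p = 0.00132). Klf4 fell by 0.36 and Myc by 0.42 on the log2 scale, with adjusted p-values of 0.000178 and 8.32e-05. For each of these 4 genes, every library with UNC0638 was below every library without it. Reads of the cassette and of the endogenous genes were not separated. On the list of 15 tested pluripotency network genes 4 fell (2 without replicate 1 or 3 of DOX 3C UNC), with a median of -0.26; beside Pou5f1 and Sox2 these were Tet1, which oxidises methylcytosine, and L1td1, an RNA-binding protein of pluripotent cells. Tet1 lost its call without replicate 1 of DOX 3C (adjusted p = 0.142), without replicate 3 of DOX 3C (adjusted p = 0.082), without replicate 1 of DOX 3C UNC (adjusted p = 0.0728) and without replicate 3 of DOX 3C UNC (adjusted p = 0.134). L1td1 lost its call without replicate 2 of DOX 3C (adjusted p = 0.104), without replicate 1 of DOX 3C UNC (adjusted p = 0.075) and without replicate 3 of DOX 3C UNC (adjusted p = 0.0808).

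Epithelial genes are known to rise early in reprogramming of fibroblasts. Of 20 tested 1 rose and 4 fell (2 with no expression filter or without replicate 2 or 3 of DOX 3C or replicate 1 of DOX 3C UNC). Cdh1, the epithelial cadherin, was at 240, 120 and 234 in the DOX 3C libraries and 234, 192 and 277 in the DOX 3C UNC libraries with an adjusted p of 0.417, and the groups overlapped. Dsp, desmoplakin of desmosomes, was at 193, 239 and 344 in the DOX 3C libraries and 119, 126 and 172 in the DOX 3C UNC libraries (log2 fold change -0.87 ± 0.20, adjusted p = 0.00765). The keratin Krt19 rose by 0.69 ± 0.12.

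The counts for chromatin genes stand beside 7.71% raised and 3.94% lowered over all tested genes. Of 14 tested H3K9 methyltransferases and partners 1 fell, Suv39h2, which lost its call without replicate 2 of DOX 3C (adjusted p = 0.0759), without replicate 3 of DOX 3C (adjusted p = 0.0801), without replicate 1 of DOX 3C UNC (adjusted p = 0.0993) and without replicate 3 of DOX 3C UNC (adjusted p = 0.071). H3K9 demethylases gave 3 decreases among 13 (1 with no expression filter or in the fit of the 6 libraries alone or without replicate 1, 2 or 3 of DOX 3C or replicate 2 of DOX 3C UNC), of which Kdm7a kept its call in every fit without 1 of the 6 libraries (log2 fold change -0.36 ± 0.06, adjusted p = 0.00151). Among 14 DNA methyltransferases and TET oxidases 3 fell (1 with no expression filter or without replicate 1, 2 or 3 of DOX 3C or replicate 1 or 3 of DOX 3C UNC). Germline genes that DNA and histone methylation silence were tested for 8 members, of which 1 rose, Rec8, a meiotic cohesin, which lost its call without replicate 1 of DOX 3C (adjusted p = 0.0952), without replicate 2 of DOX 3C (adjusted p = 0.0951), without replicate 1 of DOX 3C UNC (adjusted p = 0.0564) and without replicate 3 of DOX 3C UNC (adjusted p = 0.0879). None of 35 tested Hox genes was called by limma; 5 had an unadjusted p below 0.05, and neither edgeR nor DESeq2 called any.

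Imprinted genes are those expressed from a single parental copy. Of 30 tested 6 rose and 2 fell, and the number raised was 10 with the replicate block or without replicate 2 of DOX 3C UNC, and 3 without replicate 2 of DOX 3C. Rian, a noncoding RNA of the Dlk1-Dio3 domain on chromosome 12, was at 1075, 905 and 1133 in the DOX 3C libraries and 1845, 1406 and 1668 in the DOX 3C UNC libraries (log2 fold change 0.66 ± 0.10, adjusted p = 0.000226). Ndn, which restrains growth of neural and mesenchymal cells, rose by 0.50 ± 0.06. Kcnq1ot1 (chromosome 7, 143213111 to 143296547), the noncoding RNA that silences its neighbours on the paternal chromosome, was at 1304, 1691 and 2164 in the DOX 3C libraries and 876, 798 and 968 in the DOX 3C UNC libraries (log2 fold change -0.94 ± 0.22, adjusted p = 0.00811). Its groups did not overlap, which the naming rule required. Kcnq1ot1 is antisense to Kcnq1, and the strand setting of the counting was not given. Zdbf2 fell by 0.82 on the log2 scale.

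Some genes of growth fell, by small amounts. Of 40 tested replication and mitosis genes 12 fell, with a median of -0.14; the count was 19 with the replicate block, 2 without replicate 2 of DOX 3C or replicate 3 of DOX 3C UNC, and 7 without replicate 3 of DOX 3C. Pola1, the catalytic chain of DNA polymerase alpha, was at 3198, 3146 and 2953 in the DOX 3C libraries and 2613, 2744 and 2621 in the DOX 3C UNC libraries (log2 fold change -0.22 ± 0.05, adjusted p = 0.0065), and it kept its call in every fit without 1 of the 6 libraries. Cdkn2b, an inhibitor of CDK4 and CDK6 that TGF-beta induces, was at 514, 418 and 485 in the DOX 3C libraries and 798, 725 and 803 in the DOX 3C UNC libraries (log2 fold change 0.72 ± 0.08, adjusted p = 1.97e-05). It was the one gene called among 10 CDK inhibitors and D cyclins, near the 11.6% called over all tested genes. The median of that list was 0.05.

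A mixed list of ribosome biogenesis genes and MYC targets, metabolic enzymes included, gave 6 decreases among 30 with a median of -0.15. The number was 14 with the replicate block and 10 without replicate 2 of DOX 3C UNC. It was 3 without replicate 2 of DOX 3C or replicate 3 of DOX 3C UNC. Cad, the first enzyme of pyrimidine synthesis, was at 11397, 11094 and 11333 in the DOX 3C libraries and 7961, 9567 and 9253 in the DOX 3C UNC libraries (log2 fold change -0.34 ± 0.06, adjusted p = 0.000912). Utp20, which processes ribosomal RNA, fell by 0.30 and Shmt1, a folate enzyme, by 0.37 on the log2 scale. The list of ATF4, serine synthesis and amino acid transport genes gave 7 decreases among 28 with a median of -0.19, against 12 with the replicate block, 4 with no expression filter, 3 in the fit of the 6 libraries alone, 2 without replicate 2 of DOX 3C or replicate 1 or 3 of DOX 3C UNC, and 13 without replicate 2 of DOX 3C UNC. Slc38a1, a glutamine transporter, fell by 0.25 on the log2 scale. Slc6a15, a transporter of branched-chain amino acids, was at 43.9, 74.8 and 50.2 in the DOX 3C libraries and 18.6, 30.3 and 27.6 in the DOX 3C UNC libraries (log2 fold change -1.10 ± 0.21, adjusted p = 0.00196). Groups were separate for the latter, which the naming rule required. Of 22 glycolytic genes 2 fell (4 with the replicate block or with CPM scaling, and 1 without replicate 2 of DOX 3C). Pfkp, a phosphofructokinase, was at 4088, 4328 and 4180 in the DOX 3C libraries and 2867, 3291 and 3050 in the DOX 3C UNC libraries (log2 fold change -0.45 ± 0.06, adjusted p = 3.46e-05). Cytosolic ribosomal protein genes, of which 56 were tested, had a median of -0.06, and cholesterol synthesis genes (25 tested) one of 0.06.

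The largest decrease by the naming rule was that of Nat8l, which makes N-acetylaspartate (chromosome 5, 33995984 to 34005916 on GRCm38.p6). It was at 110, 157 and 155 in the DOX 3C libraries and 30.3, 58.2 and 65.2 in the DOX 3C UNC libraries (log2 fold change -1.50 ± 0.21, adjusted p = 0.000164). All values with UNC0638 were below the controls, which the naming rule required. Hhex, a homeobox gene of early endoderm and blood, was at 125, 142 and 117 in the DOX 3C libraries and 39.6, 66.7 and 54.1 in the DOX 3C UNC libraries (log2 fold change -1.27 ± 0.27, adjusted p = 0.00492). Tcfl5, a transcription factor of the germline, was at 98.5, 137 and 110 in the DOX 3C libraries and 37.3, 61.8 and 47.5 in the DOX 3C UNC libraries (log2 fold change -1.24 ± 0.21, adjusted p = 0.000821). Both sets of groups were separate, which the naming rule required. Fetal liver and blood cells can express Hhex, and their markers were high in DOX 3C 1. Hhex kept its call without that library, as in every other fit without 1 of the 6. The naming rule required this of Hhex, so these fits were no separate check. Tshr, the thyrotropin receptor, fell by 1.06 on the log2 scale, Cxxc4, an inhibitor of Wnt signalling, by 1.02 and Cdo1, cysteine dioxygenase, by 0.96. Celsr2, an atypical cadherin of planar polarity, fell by 0.90.

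**Figure D4:**
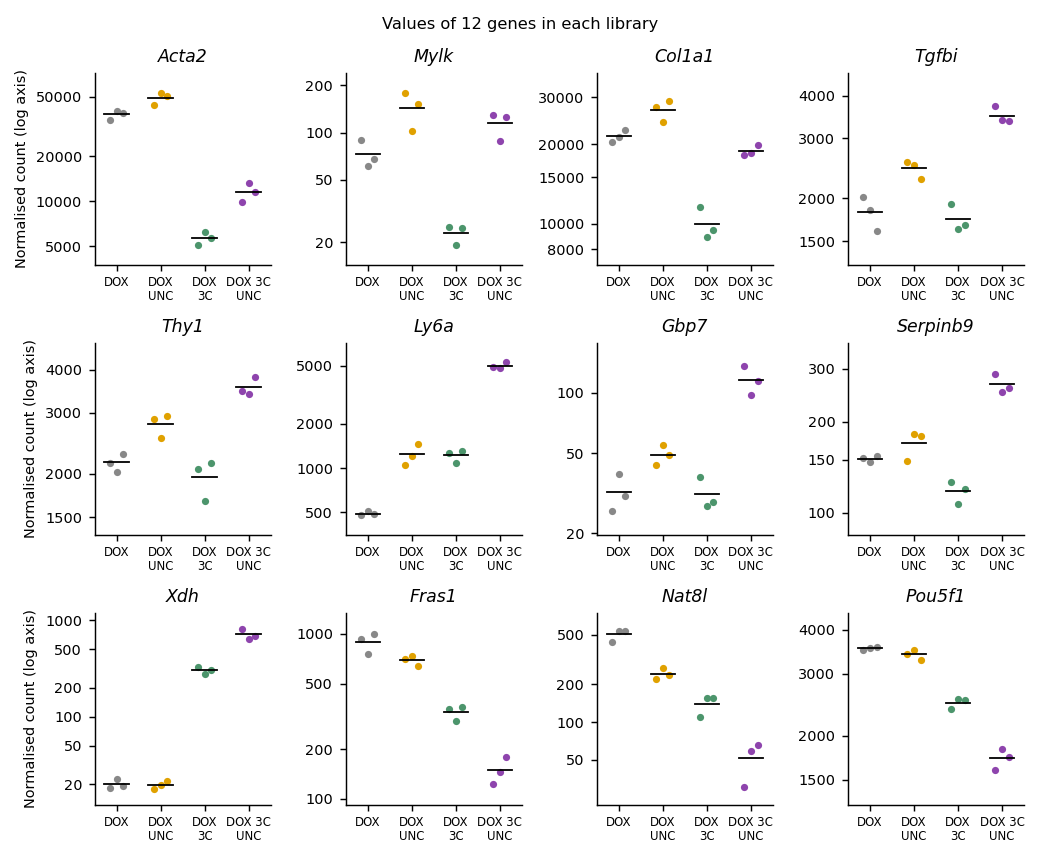
Normalised counts (log axes) of 12 genes in the 12 reprogramming libraries; each point is 1 library, the line is the group mean, and the 4 groups are DOX, DOX UNC, DOX 3C and DOX 3C UNC. In each panel the 3 purple points (DOX 3C UNC) and the 3 green points (DOX 3C) do not overlap, while the level of both relative to the groups without 3C differs from gene to gene. The naming rule required this separation of Mylk, Ly6a, Gbp7, Fras1 and Nat8l.

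Without the 3 compounds, UNC0638 raised 82 genes (0.508%) and lowered 16 (0.0991%). This total of 98 ranged from 19 (without DOX UNC 3) to 146 when 1 library was left out, with 25, 48 and 34 without DOX 1, DOX 3 and DOX UNC 2, and it was 169 by DESeq2 and 409 with the replicate block. The comparisons with and without 3C share no library. The median was 0.37 for smooth muscle genes, with 6 of 25 raised, 0.36 for fibrillar collagens and 0.22 for interferon-stimulated genes, each smaller than with 3C. For Wnt feedback inhibitors and TCF factors it was 0.08, against 0.08 with 3C, and for epithelial genes 0.12, against 0.04. Acta2 was at 34828, 40182 and 38971 in DOX and 43816, 53023 and 50241 in DOX UNC, so that DOX 3C UNC remained below both. Ly6a was at 477, 508 and 486 in DOX and 1048, 1207 and 1462 in DOX UNC, so that DOX 3C UNC was above both. Fras1 was at 932, 754 and 1003 in DOX and 705, 739 and 636 in DOX UNC, above both groups with 3C.

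The difference of the 2 effects was tested for each gene, and it was called for 10 genes (0.062%). In this fit, a call in one medium and not in the other is not shown to be a difference for the rest. The fit with the replicate block called 413 differences, 309 of them higher and 104 lower with 3C. For 7 of the 10 genes called without the block the effect with 3C was the higher one. Xdh was at 18.4, 22.8 and 19 in DOX and 17.9, 19.7 and 21.4 in DOX UNC, and its effect was 1.23 ± 0.14 with 3C against -0.02 ± 0.14 in its absence (difference 1.26 ± 0.20, adjusted p = 0.0197). Its level in the libraries with 3C was above that in all 6 others. Lgals9 had a difference of 1.16 ± 0.16 (adjusted p = 0.0113) and Serpinb9 one of 1.00 ± 0.16 (adjusted p = 0.0197). Tgfbr2 was at 1611, 1691 and 1495 in DOX and 1664, 1660 and 1732 in DOX UNC, an effect of 0.08 ± 0.07 (difference 0.56 ± 0.09, adjusted p = 0.023). Pou5f1 was at 3499, 3556 and 3568 in DOX and 3421, 3507 and 3286 in DOX UNC, an effect of -0.06 ± 0.06 (difference -0.47 ± 0.08, adjusted p = 0.023). The decrease of Pfkp differed by -0.51 ± 0.08 (adjusted p = 0.0196) and that of Plch1, a phospholipase C, by -0.83 ± 0.12 (adjusted p = 0.0113). For most genes described above the difference did not pass the test: it was 0.66 ± 0.14 for Acta2 (adjusted p = 0.0686) and 0.60 ± 0.12 for Col1a1 (adjusted p = 0.0558). These calls depended on single libraries: 0 genes were called by limma without DOX 2, where 1668 had an unadjusted p below 0.05, 2 without DOX 3C 2 or DOX 3C UNC 3, and 70 without DOX 3C 1. With all 12 libraries edgeR called 17 and DESeq2 155.

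**Figure D5:**
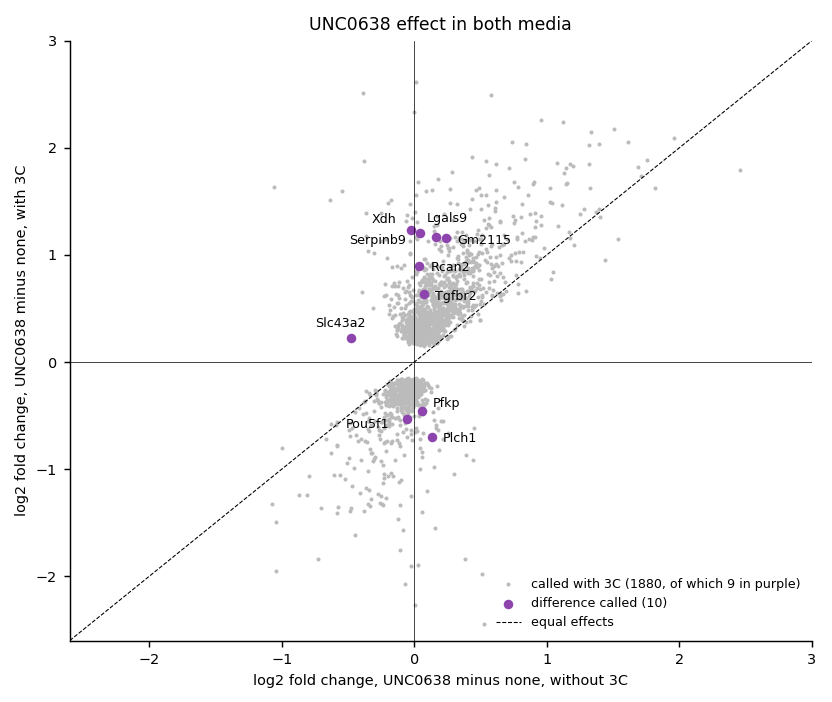
Log2 fold change of UNC0638 with 3C against that without 3C for the 1880 genes called with 3C (grey) and the 10 genes whose difference was called (purple); the dashed line marks equal effects. Most points lie between the vertical axis and the dashed line, and the choice of genes by their effect with 3C favours that side; Xdh, Lgals9, Serpinb9, Gm2115, Rcan2 and Tgfbr2 lie near 0 without 3C.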

How the data were processed

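RNA of 12 libraries of reprogramming mouse fibroblasts was analysed, 3 in each of 4 groups, grouped by their labels. Libraries were made with the TruSeq stranded total RNA kit with RiboZero Gold, per the labels' protocols. The tools named in the submitters' processing notes are HTSeq 0.5.4p3, TopHat2 2.1.0, DESeq with no version and SAMtools 1.8, and the build is mm10; the strand setting is not given in the sources used here. The deposited table held signal, not raw counts: the authors' values were read counts divided by 1 factor per library, and every value was a whole number of reads within 0.01 read. It had 54109 identifiers, of which 54042 matched a symbol in the reference tables. There were 2 columns that matched no listed sample, and these were not used. Depth in genes was 10.62 to 20.21 per library in units of 1e+06 reads, so genes of few reads carry wide errors.

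The log2 of the value plus 1 was fitted with limma 3.58.1 in R 4.3.3 (group means, empirical Bayes with a trend) over all 12 libraries, for 16138 genes that reached 10 normalised counts in 3 or more libraries. P-values were adjusted by the Benjamini-Hochberg method over all tested genes, with a threshold of 0.05. The contrasts were UNC0638 with 3C, UNC0638 without 3C and their difference. The script was tested on simulated data. Alternatives were edgeR 4.0.16 and DESeq2 1.42.0 on the recovered reads, a replicate block, CPM scaling, a pseudocount of 5, no filter or a filter at 50, the 6 libraries of a comparison alone, and leaving out each library. Same-numbered libraries with and without UNC0638 deviated together from their group means, by small amounts (r = 0.11, 0.191 and 0.149 over 16138 genes for replicates 1 to 3 with 3C). Unlike numbers gave -0.032 to -0.111. Deviations from a mean of 3 libraries cancel out within a group, so these negative values are no further evidence of a pairing. Without 3C the same numbers gave r = 0.223, 0.211 and 0.094 for replicates 1 to 3. The replicate block takes its pairing from the numbers alone, since the labels do not state one. If the numbers do pair libraries, the main fit counts a shift shared by a pair as spread. Its counts, which are smaller than those with the block in each contrast, would then be too low. Between replicates with 3C, chi-square per degree of freedom was 3.13 to 8.31, so these libraries differed by more than counting error.

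Genes and the 55 gene lists were chosen with earlier results of these data known. The naming rule took the 14 largest changes each way among genes that were called in the fit of all libraries and without each of the 6, had a mean of at least 50 in the higher group, did not overlap between groups and bore no clone name. To these it added the 4 called members of lowest p in each list (fewer where fewer were called), the reprogramming factors, Ehmt1, Ehmt2, Thy1, Cdh1, the most abundant markers of other cell types and the genes of the difference. Other genes named were picked after their values were seen. It named 203 genes, of which 181 were called with 3C. Some of the named genes are not reported here. Promoters are RefSeq sequences on GRCm38.p6.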

Additional observations from a re-analysis of the deposited data

Results flagged for a closer look

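For 10 genes the effect of UNC0638 differed between the medium with 3C and that without it, by limma's test of the difference itself; values are the log2 effect with 3C minus that without, ± standard error. It was higher with 3C for Xdh (1.26 ± 0.20), Lgals9 (1.16 ± 0.16), Serpinb9 (1.00 ± 0.16), Gm2115 (0.91 ± 0.15), Rcan2 (0.86 ± 0.15), Slc43a2 (0.70 ± 0.12) and Tgfbr2 (0.56 ± 0.09). It was lower with 3C for Pou5f1 (-0.47 ± 0.08), Pfkp (-0.51 ± 0.08) and Plch1 (-0.83 ± 0.12).

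Gm2115, a predicted gene, was at 297, 246 and 309 in DOX 3C and 635, 554 and 709 in DOX 3C UNC, and at 681, 788 and 785 in DOX and 814, 854 and 998 in DOX UNC (adjusted p of the difference = 0.023). Rcan2, an inhibitor of calcineurin, was at 120, 121 and 150 in DOX 3C and 236, 228 and 265 in DOX 3C UNC, and at 278, 305 and 302 in DOX and 316, 315 and 279 in DOX UNC (adjusted p = 0.0321). Slc43a2, an amino acid transporter, was the one whose effect passed the test without 3C (-0.48 ± 0.09, adjusted p = 0.0139) and not with it (adjusted p = 0.109). Plch1 was at 440, 404 and 463 in DOX 3C and 261, 269 and 273 in DOX 3C UNC, and at 326, 329 and 310 in DOX and 337, 388 and 335 in DOX UNC.

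Of the 12 fits that each left out 1 library, Lgals9 and Plch1 kept the call in 11, losing it without DOX 2 (adjusted p = 0.0523 for each). Pfkp kept it in 9, Xdh and Serpinb9 in 8, Gm2115 in 7, Tgfbr2 in 6, and Pou5f1, Rcan2 and Slc43a2 in 5. The highest adjusted p in these fits was 0.101, for Rcan2.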

How the results depend on the processing

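With 3C, 1880 genes were called (1244 raised, 636 lowered). The fit with the replicate block called 2871, of which 1107 were lowered. Fits without 1 of the libraries called 1034 to 1921, raised 749 to 1170 and lowered 285 to 751. The lowest counts came without DOX 3C 2 (1034; 749 raised and 285 lowered) and without DOX 3C UNC 3 (1135; 784 raised and 351 lowered), and without DOX 3C UNC 1 402 were lowered. The other settings kept each of these counts within 1.5 times.

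Without 3C, 98 genes were called (82 raised, 16 lowered). DESeq2 called 169 (128 and 41) and the replicate block 409 (315 and 94). Fits without 1 library called 19 to 146, raised 15 to 103 and lowered 2 to 43; the lowest total came without DOX UNC 3.

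For the difference, 10 genes were called (7 higher and 3 lower with 3C). EdgeR called 17 (12 and 5), DESeq2 155 (122 and 33), the replicate block 413 (309 and 104), CPM scaling 45 (34 and 11) and a pseudocount of 5 29 (22 and 7). Fits without 1 library called 0 to 70, higher 0 to 60 and lower 0 to 10, with 0 without DOX 2 and 70 without DOX 3C 1. The cause was not tested for any of these shifts. No filter and a filter at 50 kept these 3 counts within 1.5 times.

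None of the 181 named genes called with 3C reversed in any setting where it was tested. Markers of other cells did change sign without DOX 3C 1, though none was called. The erythroid median went from -0.812 to 0.238 and the fetal liver median from -0.573 to 0.564. Of the 181, 150 kept their call in every fit without 1 of the 6 libraries and 149 in every alternative. The naming rule required the former of the 14 largest changes each way. Depth limits what can be said of genes of few reads, of which the filter on low values left out all under 10 normalised counts in 10 or more libraries. The harvest time, the cassette of each library and the origin of replicates are not given, and endogenous and cassette transcripts were not separated.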

Other observations

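Lowered genes spanned more of the genome than others. Their median span from first to last base was 42.3 kb (598 of 636 genes with a position), against 23.8 kb for raised genes (1239 of 1244) and 17.9 kb for genes not called (13304 of 14258). The share of reads in genes over 100 kb ranged from 11.1 to 11.3% in the DOX 3C libraries and from 10.9 to 11.1% in the DOX 3C UNC libraries, so the groups touch at this level. These are descriptions with no test.

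Zinc finger genes with a Zfp symbol, many of which encode repressors that recruit H3K9 methylation, were tested for 347 members, of which 6 rose (1.73%) and 20 fell (5.76%), with a median log2 fold change of -0.05. Of 552 tested long noncoding RNA genes 18 rose (3.26%) and 8 fell (1.45%). Over all tested genes 7.71% rose and 3.94% fell, and over protein-coding genes 9.42% and 4.49%.

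The AP-1 site TGANTCA, searched on both strands, was found in 7.12% of promoters of raised genes, in 2.51% of those of lowered genes and in 4.5% of those of all tested genes. This is a description of letters in these windows and was not tested.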
